A study of Homo sapiens with 8 samples.

Results

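The glycolysis group described here was fixed by a list of 10 genes, the glucose transporter SLC2A1 and the enzymes HK1, HK2, PFKP, ALDOA, GAPDH, PGK1, ENO1, PKM and LDHA, and all 10 were found among the 12939 genes with values. RNA-Seq was done on cancer stem cells (CSCs) sorted from MDA-MB-231, a human triple-negative breast cancer cell line that carries a reporter of Oct4a, pOct4a-GFP, under G418. The cells had also been stably transfected with pRFP-C-RS holding scramble shRNA (3 libraries), CDH2 shRNA (3 libraries) or Cx43 shRNA (2 libraries) and selected with puromycin, so that the controls carried the reporter, the vector and both drugs as well. CDH2 encodes N-cadherin and Cx43 is the gap junction protein connexin 43. Every library came from cells with high GFP and high RFP that were left overnight after the sort. The CDH2 knockdown was a single clone, so the clone and the knockdown cannot be told apart, and nothing states that the replicates were separate cultures, so that p-values measure only the spread between these libraries.

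The values are log2(CPM + 1), with CPM the counts scaled to a common library total, from which the authors had removed the effect of the sequencing run. This correction ties the libraries of a run to each other, so SDs and differences within a run are not those of independent libraries. The column names fall into sets by their prefix, if any, which match the replicate numbers 1 to 3 and were taken as the sequencing runs. The replicate number was a term of every test. Turned back from the log scale, the CPM of a library summed to between 684411 and 727083. The read depth is unknown, so whether depth or the small number of libraries limits the precision more cannot be told. All 7 mesenchymal markers of the line had values, with a summed level of 3040 to 3320 CPM over the 8 libraries. In CDH2 shRNA 3 of them were higher than scramble and 4 lower. LGALS1 (-0.65 on the log2 scale, limma adjusted p = 0.0335) and SPARC (-0.39, adjusted p = 0.0395) were lower and passed the test described below. None of 3 erythrocyte markers had values. Of 10 luminal epithelial markers, ERBB2, EPCAM, KRT8 and KRT18 had values, with a sum of 700 to 870 CPM in scramble, 576 to 713 in CDH2 shRNA and 722 to 727 in Cx43 shRNA, while ESR1, PGR, GATA3, FOXA1, CDH1 and KRT19 had none. All 4 had log2 differences below 0 in CDH2 shRNA, and EPCAM passed the test described below (-0.37 on the log2 scale, limma adjusted p = 0.0349). Of the leukocyte markers, ITGAM and CD68 had values (16.8 to 26.1 CPM in sum), while PTPRC, CD14 and CD3E had none, and of 3 endothelial markers PECAM1 had values (2.18 to 4.67 CPM) and VWF and KDR had none. Of the Oct4 stem cell markers POU5F1 alone had values (10.9 to 13.4 CPM), and SOX2 and NANOG had none. Of 5 stromal fibroblast markers, PDGFRB and COL1A1 had values. Their sum was 53.7 to 66.3 CPM in scramble, 40.4 to 52.6 in CDH2 shRNA and 29.6 to 40.2 in Cx43 shRNA. In CDH2 shRNA PDGFRB was lower and passed (-0.63, limma adjusted p = 0.0442), while COL1A1 was at 0.16 (adjusted p = 0.692). In Cx43 shRNA they were at -0.72 (adjusted p = 0.103) and -0.92 (adjusted p = 0.173). The part of the mesenchymal, luminal and stromal differences in the results was not tested.

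Glycolysis turns glucose into pyruvate in the cytosol and yields a little ATP without oxygen. Glucose enters through facilitative transporters such as SLC2A1, is trapped by hexokinase, is committed to the pathway by phosphofructokinase, and is split by aldolase into trioses that lose energy to ATP and NADH on the way to pyruvate. LDHA then makes lactate and returns NAD+. Many tumor cells run this route at a high rate even in air, and several of its genes are targets of hypoxia-inducible factor (HIF) and of MYC.

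The sequences before the transcription start are shown for 4 enzymes whose transcripts passed the test in CDH2 shRNA, since the members are often discussed as shared targets of HIF. Each is 250 bases from RefSeq (GRCh38.p14), written 5′ to 3′ on the strand of the gene. They are chr2:74833877-74834126 on the plus strand for HK2, chr16:30065510-30065759 on the plus strand for ALDOA, chr1:8878687-8878936 on the minus strand for ENO1 and chr15:72231191-72231440 on the minus strand for PKM. Capitals mark ACGTG or GCGTG on either strand, the core letters of the hypoxia response element.
HK2: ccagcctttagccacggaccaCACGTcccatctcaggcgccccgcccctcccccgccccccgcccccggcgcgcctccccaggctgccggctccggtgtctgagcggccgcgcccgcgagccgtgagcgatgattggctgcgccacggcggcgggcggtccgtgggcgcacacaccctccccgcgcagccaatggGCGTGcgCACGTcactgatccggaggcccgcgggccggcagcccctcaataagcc
ALDOA: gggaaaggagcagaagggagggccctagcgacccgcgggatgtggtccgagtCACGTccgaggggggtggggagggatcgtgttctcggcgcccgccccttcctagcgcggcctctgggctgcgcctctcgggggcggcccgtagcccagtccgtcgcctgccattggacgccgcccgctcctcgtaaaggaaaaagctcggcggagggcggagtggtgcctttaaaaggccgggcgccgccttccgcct
ENO1: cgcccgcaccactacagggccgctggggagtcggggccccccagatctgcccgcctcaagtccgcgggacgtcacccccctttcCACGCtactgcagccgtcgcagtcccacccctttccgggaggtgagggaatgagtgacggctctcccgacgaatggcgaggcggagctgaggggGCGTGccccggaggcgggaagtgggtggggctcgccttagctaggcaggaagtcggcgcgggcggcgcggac
PKM: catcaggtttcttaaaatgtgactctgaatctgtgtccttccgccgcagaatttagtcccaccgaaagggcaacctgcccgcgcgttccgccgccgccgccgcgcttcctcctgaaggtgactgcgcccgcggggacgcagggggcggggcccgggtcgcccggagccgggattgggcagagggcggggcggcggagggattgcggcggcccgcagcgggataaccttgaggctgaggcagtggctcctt
HK2 held 3 of these short matches, ENO1 2, ALDOA 1 and PKM 0. The start in RefSeq was that of the GENCODE canonical transcript for 7 members, and 5 of the 7 windows held a match, PGK1 with 3 and LDHA with 5 (on overlapping letters where CACGTG reads alike on both strands) and SLC2A1 with 0. The letters are common, since 43.2% of 35116 windows of the same length held a match and 55.7% of 13560 windows of the genes tested here. The E-box CACGTG, the letters read by MYC and its partners, stood in 1 of the 7 windows, that of LDHA. It stood in 6.34% of all windows and in 8.3% of those of the genes tested here. HK2, which rose in CDH2 shRNA, and ALDOA and ENO1, which fell, held the hypoxia letters, while PKM, which also fell, held none. PGK1 and LDHA held them and did not pass. Whether the letters bear on the differences was not tested.

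Transcript levels differed widely along the pathway. Per kb of the canonical transcript, GAPDH was the most abundant member in scramble CSCs with 2550 ± 30.9 CPM per kb (SD, n = 3), followed by ENO1 with 1290 ± 29.2, PKM with 792 ± 8.22, ALDOA with 728 ± 18.9 and LDHA with 449 ± 47.4. PGK1 (127 ± 16.5 CPM per kb) and SLC2A1 (66.2 ± 4.67) lay lower, and the enzymes at the head of the pathway were the lowest, HK1 with 48.6 ± 0.906, PFKP with 34.6 ± 0.436 and HK2 with 9.76 ± 0.769. No neighbours in this order overlapped in the scramble libraries, the closest being PKM, whose lowest library had 783 CPM per kb, and ALDOA, whose highest had 747. The values had been run-corrected, so these SDs and gaps are not those of 3 independent libraries. GAPDH ranked at place 7 and ENO1 at place 12 among 11888 genes with a transcript length, against place 5255 for HK2. From ALDOA to LDHA every member enzyme thus stood above SLC2A1, the hexokinases and PFKP, as the plot of levels per length shows. The order holds for the members only. Of other enzymes from aldolase onward, TPI1 (591 CPM per kb in scramble) and PGAM1 (179) also lay above SLC2A1. ENO2 (39), ALDOC (8.87), BPGM (8.67) and ENO3 (6.98) lay below it.

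**Figure D1:**
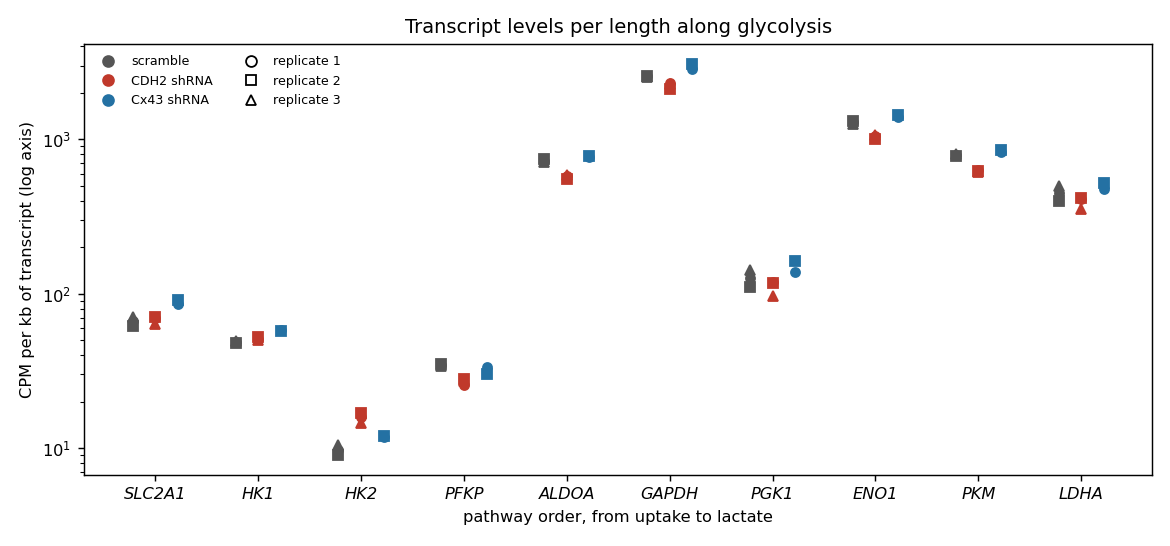
Level of each member in CPM per kb of canonical transcript (log axis) in pathway order, with a point for each of the 8 libraries. GAPDH, ENO1, PKM and ALDOA lay highest in every group and HK2 lowest, at 9.76, 15.8 and 11.8 CPM per kb on average in scramble, CDH2 shRNA and Cx43 shRNA.

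Knockdown of CDH2 was compared with scramble to ask how the pathway differed in CSCs that carried CDH2 shRNA. HK2, the inducible hexokinase bound to mitochondria, was 1.61-fold higher, while PFKP, ALDOA, ENO1 and PKM fell by 19.5% to 22%. Thus 5 of the 10 members passed the test (limma, Benjamini-Hochberg adjusted p under 0.05 over all genes), where 14.3% of all genes passed, 7.29% higher and 6.98% lower. No member was past the fold change that the study set for this comparison (0.73 on the log2 scale), as 2.06% of all genes were. Among the members 7 were lower and 3 higher, with a median log2 fold change of -0.19, against a median of 0.01 and 49% lower over all genes. In HK1 and HK2 every CDH2 shRNA library lay above every scramble library, as in 27.1% of all genes, and in PFKP, ALDOA, GAPDH, ENO1 and PKM every one lay below, as in 24.8%.

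HK2 (chr2:74834127-74893359, hg38, plus strand, 18 exons) had log2(CPM + 1) levels of 5.80, 5.69 and 5.91 in scramble replicates 1 to 3. Its levels in CDH2 shRNA were 6.49, 6.59 and 6.37, and in Cx43 shRNA 6.07 and 6.08. Every CDH2 shRNA library lay above every other library, and both Cx43 shRNA libraries lay above scramble. The log2 difference from scramble was 0.69 ± 0.10 (SE; adjusted p = 0.0223) for CDH2 shRNA and 0.28 ± 0.12 (adjusted p = 0.254) for Cx43 shRNA. Within each sequencing run the log2 difference of CDH2 shRNA from scramble was 0.69, 0.90 and 0.46. The run correction ties these differences to each other, so they are not separate repeats.

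HK1, the hexokinase that most tissues share, stood at 7.46, 7.43 and 7.49 in scramble, 7.52, 7.58 and 7.51 in CDH2 shRNA, and 7.72 and 7.69 in Cx43 shRNA. The 3 groups did not overlap, but the steps were small. CDH2 shRNA differed from scramble by 0.08 on the log2 scale (95% interval -0.11 to 0.26) and Cx43 shRNA by 0.25 (0.03 to 0.46, adjusted p = 0.185). The CPM of HK2 was therefore 0.481 times that of HK1 in CDH2 shRNA, against 0.313 in scramble and 0.32 in Cx43 shRNA. As log2 ratios these were -1.06 ± 0.08, -1.68 ± 0.09 and -1.64 ± 0.03 (SD, n = 3, 3 and 2), and the CDH2 shRNA libraries did not overlap the others. This ratio was given no test.

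PFKP, the platelet form of phosphofructokinase, read 6.51, 6.54 and 6.51 in scramble, 6.09, 6.22 and 6.18 in CDH2 shRNA, and 6.49 and 6.33 in Cx43 shRNA. The fall in CDH2 shRNA had a log2 size of -0.36 ± 0.09 (adjusted p = 0.0484). Cx43 shRNA was -0.11 from scramble (95% interval -0.36 to 0.14). Both Cx43 shRNA libraries lay between the other groups, the first by 0.03 below scramble within its run.

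ALDOA, the main aldolase of most cells, measured 10.23, 10.26 and 10.19 in scramble and 9.90, 9.83 and 9.92 in CDH2 shRNA. In Cx43 shRNA it had 10.30 and 10.33. The CDH2 shRNA libraries lay below and the Cx43 shRNA libraries above every scramble library. ENO1, the ubiquitous enolase, had the same order, with 11.17, 11.20 and 11.14 in scramble, 10.88, 10.80 and 10.89 in CDH2 shRNA and 11.27 and 11.32 in Cx43 shRNA. PKM, which makes pyruvate and ATP, did too, with 10.84, 10.82 and 10.85 in scramble, 10.51, 10.49 and 10.48 in CDH2 shRNA and 10.91 and 10.94 in Cx43 shRNA. In CDH2 shRNA the log2 differences from scramble were -0.34 ± 0.08 for ALDOA (adjusted p = 0.0412), -0.31 ± 0.08 for ENO1 (adjusted p = 0.0489) and -0.34 ± 0.07 for PKM (adjusted p = 0.0371). In every sequencing run the 3 transcripts were lower than scramble, by 0.24 to 0.43 on the log2 scale. These differences are tied to each other by the run correction and are not separate repeats. In Cx43 shRNA the 3 transcripts were 0.09, 0.13 and 0.09 above scramble, with limma adjusted p from 0.454 to 0.584.

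GAPDH, which passes electrons from the trioses to NAD+, is often taken as a constant reference. It read 11.68, 11.70 and 11.66 in scramble, 11.54, 11.42 and 11.51 in CDH2 shRNA, and 11.85 and 11.96 in Cx43 shRNA. Those groups did not overlap either, though neither difference passed the test. CDH2 shRNA was 0.19 lower on the log2 scale (95% interval -0.39 to 0.01, adjusted p = 0.148) and Cx43 shRNA 0.23 higher (-0.01 to 0.46, adjusted p = 0.242).

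PGK1 and LDHA spread more between replicates than the other members in scramble and in CDH2 shRNA. PGK1, which makes the first ATP of the pathway, had 9.25, 9.05 and 9.43 in scramble, 9.16, 9.14 and 8.87 in CDH2 shRNA, and 9.39 and 9.61 in Cx43 shRNA. LDHA had 9.97, 9.82 and 10.12 in scramble, 9.85, 9.87 and 9.64 in CDH2 shRNA, and 10.06 and 10.20 in Cx43 shRNA. For both genes the scramble libraries overlapped each knockdown. The log2 difference of LDHA in CDH2 shRNA was -0.18 with a 95% interval from -0.49 to 0.12, and that of PGK1 -0.19 with an interval from -0.55 to 0.17. Within runs the LDHA difference went from 0.06 to -0.49.

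SLC2A1, the basal glucose transporter GLUT1, stood at 7.81, 7.71 and 7.91 in scramble and at 7.90, 7.91 and 7.75 in CDH2 shRNA, and these groups overlapped. The Cx43 shRNA libraries had 8.19 and 8.28, above all others. The log2 difference of CDH2 shRNA from scramble was 0.04 (95% interval -0.20 to 0.28) and that of Cx43 shRNA 0.42 ± 0.11 (adjusted p = 0.124).

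**Figure D2:**
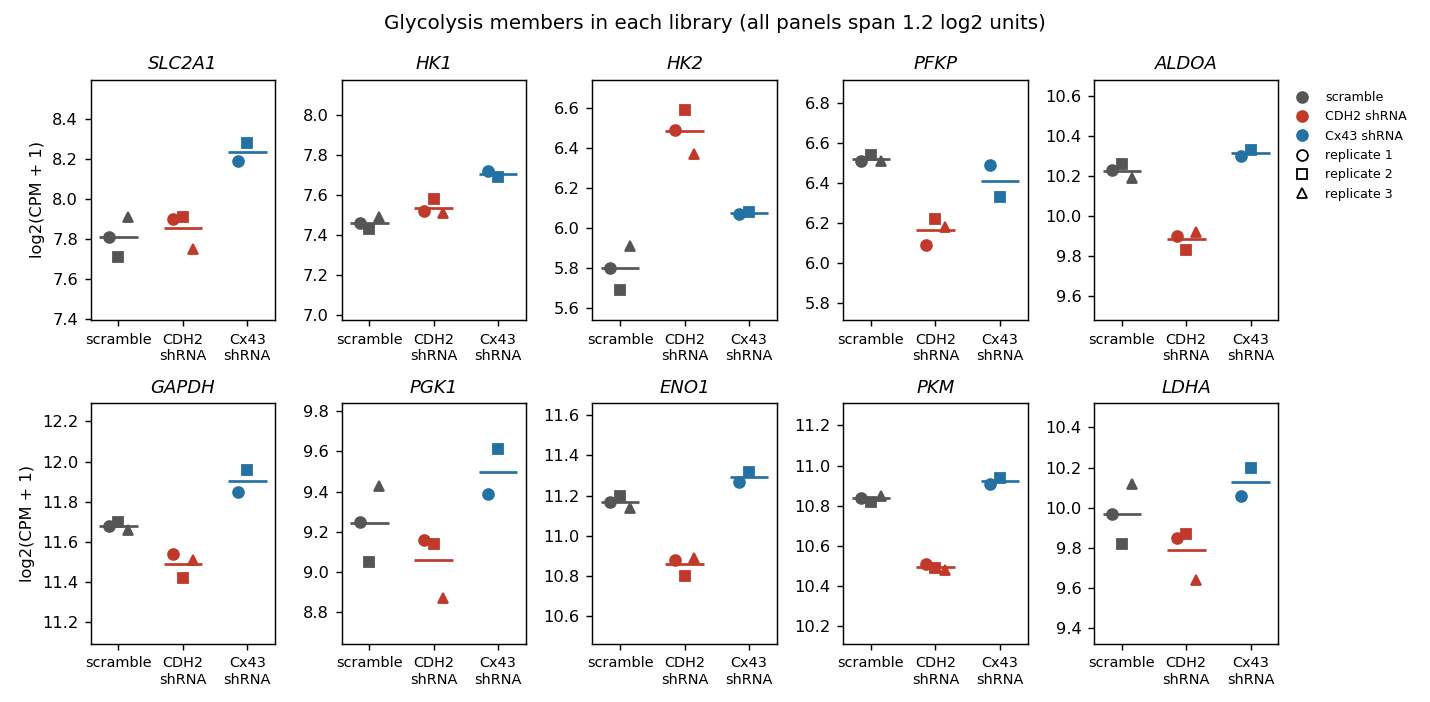
Level of each member in log2(CPM + 1), with 1 panel per gene, a point for each library shaped by replicate number, and bars at the group means (n = 3, 3 and 2). HK2 was highest in CDH2 shRNA, while ALDOA, GAPDH, ENO1 and PKM were lowest in CDH2 shRNA and highest in Cx43 shRNA with no overlap between groups.

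The calls in CDH2 shRNA rest on few residuals. After group and replicate number, 3 directions remain among the 8 libraries, the corrected values vary in only 2 of them, and with the residual variance taken over those 2 only HK2 still passed (adjusted p = 0.0491), as did 2.29% of all genes, with PFKP at 0.162, ALDOA at 0.169, ENO1 at 0.2 and PKM at 0.166. With scramble and CDH2 shRNA alone in the model, or without CDH2 shRNA replicate 1 or 2, either Cx43 shRNA library or scramble replicate 1, 0 members passed, along with 0 to 10 of all genes, and without scramble replicate 2 only HK2 did, with 12.1% of all genes. Without CDH2 shRNA replicate 3 or scramble replicate 3, the same 5 members passed, as did 41% of all genes.

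Knockdown of Cx43 was compared with scramble for the same question on gap junctions. SLC2A1, at 1.34-fold, and HK2, at 1.21-fold, stood highest relative to scramble, and PFKP was the only member below it. No member passed the test in limma after Benjamini-Hochberg adjustment, while 1.21% of all genes did. At an unadjusted p under 0.05 there were 2 members, SLC2A1 and HK1, both higher, against 21.6% of all genes, of which 12.2% higher. The median log2 difference of the members was 0.19, against 0.04 over all genes. In 7 members both Cx43 shRNA libraries lay above all scramble libraries, as in 31.4% of all genes, and in PFKP both lay below, as in 21.4%.

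The knockdowns were also compared with each other, to ask whether the members differ between cells with CDH2 shRNA and with Cx43 shRNA. No gene of the 12939 passed the limma test here (0% of all genes), so no member did. In 9 of 10 members, all but HK2, every CDH2 shRNA library was below both Cx43 shRNA libraries, as in 29.1% of all genes. In HK2 every one was above, as in 21.8%. All members were measured in the same libraries, so their number adds no replicates. At an unadjusted p under 0.05 there were 7 members, HK2 higher and SLC2A1, ALDOA, GAPDH, PGK1, ENO1 and PKM lower, against 20% of all genes, of which 8.65% higher and 11.4% lower. The median log2 difference was -0.40 among the members and -0.03 over all genes. ENO1 (-0.44 ± 0.09), PKM (-0.43 ± 0.08), ALDOA (-0.43 ± 0.09) and GAPDH (-0.41 ± 0.09) had adjusted p from 0.124 to 0.14. HK2 was 0.41 ± 0.12 higher in CDH2 shRNA (adjusted p = 0.171).

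**Figure D3:**
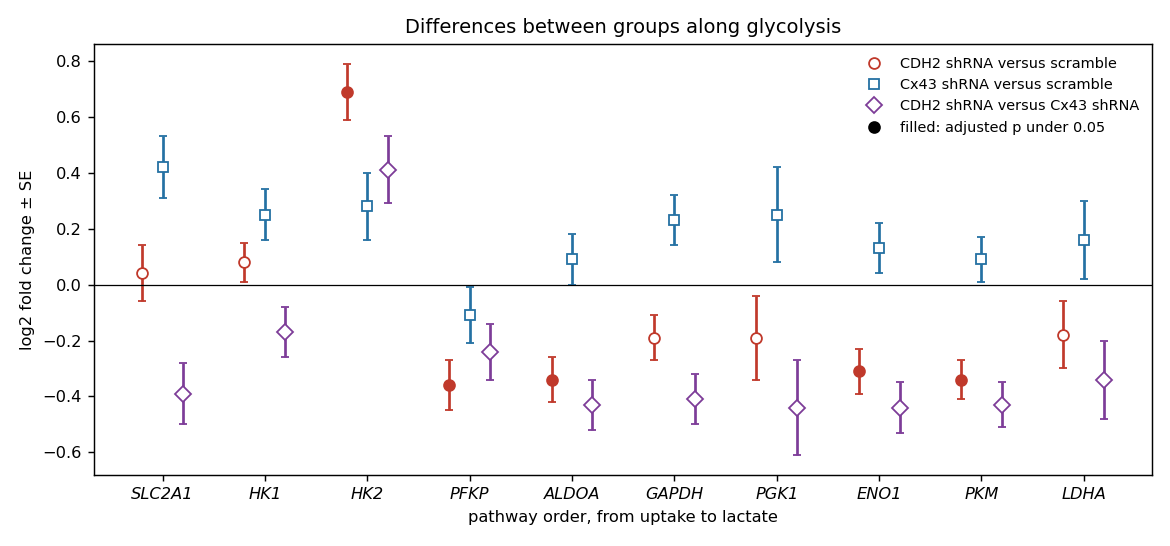
Log2 fold change ± SE of each member in pathway order for the 3 comparisons, from limma over 8 libraries. Filled symbols passed at an adjusted p under 0.05, which were HK2 (0.69), PFKP (-0.36), ALDOA (-0.34), ENO1 (-0.31) and PKM (-0.34) in CDH2 shRNA versus scramble. The comparisons share libraries.

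Added up, the 10 members made 1.56, 1.51 and 1.59% of the CPM of all genes in the scramble libraries. Their share was 1.36, 1.28 and 1.29% in CDH2 shRNA and 1.61 and 1.74% in Cx43 shRNA. The 3 groups did not overlap, and the sum is set mainly by GAPDH, ENO1, PKM and ALDOA. Fewer transcripts of these genes in a cell and more of all others cannot be told apart in such shares. The 13 genes of the mitochondrial genome took 0.594 to 1.01% of the CPM in scramble, 1.16 to 2.03% in CDH2 shRNA and 1.25 to 2.36% in Cx43 shRNA. None of the 13 genes passed in either knockdown, where 14.3 and 1.21% of all genes did. Their log2 differences in CDH2 shRNA were 0.60 to 1.88 in replicate 1 and 0.12 to 0.50 in replicate 3. With these genes left out and the libraries rescaled, HK2, PFKP, ALDOA and PKM passed in CDH2 shRNA, as did 13.8% of all genes. ENO1, whose limma adjusted p was 0.0489 with all genes kept, did not pass.

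Isozymes were set against each other within a library. ALDOC, the brain aldolase, was far below ALDOA, with a log2 ratio of CPM of -6.39 ± 0.21 in scramble, -7.16 ± 0.22 in CDH2 shRNA and -6.61 ± 0.30 in Cx43 shRNA (SD). The log2 ratio of LDHA to LDHB, the form that favors pyruvate, was 0.89 ± 0.22, 0.92 ± 0.19 and 0.85 ± 0.17, differences smaller than the spread. ENO2, the neuronal enolase, made 0.0388, 0.0394 and 0.0378 of the CPM of ENO1. PFKP to PFKL, the liver form, was 0.726, 0.627 and 0.555, and SLC2A3, a high-affinity transporter, to SLC2A1 was 0.313, 0.317 and 0.252 in scramble, CDH2 shRNA and Cx43 shRNA. Of the 6 ratios, HK2 to HK1 was the one whose CDH2 shRNA libraries all lay above all other libraries, and ALDOC to ALDOA the one whose CDH2 shRNA libraries all lay below.

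**Figure D4:**
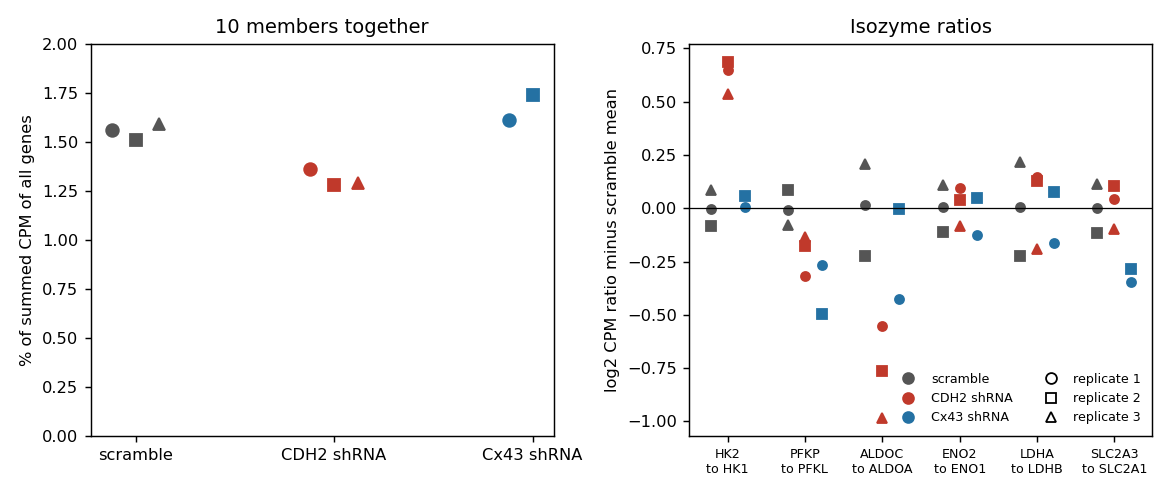
Left, summed CPM of the 10 members as a percentage of the CPM of all genes in each library. Right, log2 ratio of CPM of 6 isozyme pairs minus the scramble mean, with a point per library. The share was 1.28 to 1.36% in CDH2 shRNA and 1.51 to 1.74% in the other libraries, and HK2 to HK1 was highest in CDH2 shRNA.

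Of 123 other genes of glucose metabolism listed with the members, 90 had values. In CDH2 shRNA, 2 of the 90 rose and 10 fell, which is close to the 14.3% of all genes that passed. No glucose transporter among the 7 others with values passed in any comparison, and SLC2A13, a carrier of inositol, stood farthest from scramble with log2 differences of 0.30 in CDH2 shRNA (adjusted p = 0.281) and 0.27 in Cx43 shRNA (adjusted p = 0.519). SLC2A12 did so between the knockdowns (-0.30, adjusted p = 0.556).

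Of 10 other glycolytic enzymes with values, 1 passed in CDH2 shRNA, with a median log2 difference of -0.21. That was ALDOC, which fell from 3.94, 3.75 and 4.08 in scramble to 3.12, 2.88 and 2.77 in CDH2 shRNA, by 1.00 ± 0.17 on the log2 scale (adjusted p = 0.0262), and stood at 3.60 and 4.02 in Cx43 shRNA. In Cx43 shRNA PGAM1, the phosphoglycerate mutase, had the largest difference, 0.35 with an adjusted p of 0.107. All glycolytic enzymes together, the 9 enzymes of the list included, counted 4 higher and 15 lower of 19 in CDH2 shRNA, and 15 higher and 4 lower in Cx43 shRNA, while 49% of all genes were lower in CDH2 shRNA and 57.6% higher in Cx43 shRNA.

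PFKFB3, which makes the main activator of phosphofructokinase, rose in CDH2 shRNA. Its levels were 3.92, 3.86 and 4.0 in scramble, 4.38, 4.62 and 4.38 in CDH2 shRNA, and 4.56 and 4.38 in Cx43 shRNA. Both knockdowns lay above scramble, with log2 differences of 0.53 ± 0.11 (adjusted p = 0.037) and 0.54 ± 0.13 (adjusted p = 0.104). PFKFB4 had the largest difference of the 4 such enzymes between the knockdowns, -0.25 with an adjusted p of 0.423.

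Among 5 lactate enzymes and carriers, SLC16A3, the lactate exporter MCT4, fell in CDH2 shRNA with a log2 difference of -0.35 ± 0.09 (adjusted p = 0.0499). EMB, embigin, a partner protein of monocarboxylate carriers, was the only one of the 90 that passed in Cx43 shRNA, where 1.21% of all genes did. It had 1.85, 1.77 and 1.95 in scramble, 1.91, 2.18 and 1.91 in CDH2 shRNA, and 3.10 and 2.90 in Cx43 shRNA. These levels were low, at 0.625 CPM per kb in scramble, place 11622 of 11888 genes with a transcript length. The rise was 1.14 ± 0.14 on the log2 scale (adjusted p = 0.0375), and the difference between the knockdowns was -1.0 ± 0.14 (adjusted p = 0.115).

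Where pyruvate enters mitochondria, 2 of 13 genes passed in CDH2 shRNA, both lower. They were PDK2, a kinase that holds pyruvate dehydrogenase back (-0.42, adjusted p = 0.0286), and PDHB, a subunit of that enzyme (-0.30, adjusted p = 0.0493). DLAT, another subunit, differed most from scramble in Cx43 shRNA (0.29, adjusted p = 0.148). PDK2 was also the farthest apart between the knockdowns (-0.42, adjusted p = 0.125).

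In the pentose phosphate pathway 1 of 8 genes passed. PGLS, the lactonase of its oxidative arm, fell from 4.35, 4.44 and 4.26 in scramble to 3.65, 3.60 and 3.76 in CDH2 shRNA, by 0.68 ± 0.09 on the log2 scale (adjusted p = 0.0209). It also had 3.85 and 3.81 in Cx43 shRNA (-0.52, adjusted p = 0.0849), so both knockdowns lay below scramble. RPIA, the ribose phosphate isomerase, was the farthest apart between the knockdowns (0.35, adjusted p = 0.206).

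Among 15 genes of glycogen and hexose interconversion, PGM1, the phosphoglucomutase (-0.49, adjusted p = 0.0388), and MPI, the mannose phosphate isomerase (-0.33, adjusted p = 0.0421), fell in CDH2 shRNA. In Cx43 shRNA MPI stood at -0.31 (adjusted p = 0.134) and PGM1 at -0.10 (adjusted p = 0.662). PGM2L1 had the largest difference in Cx43 shRNA (-0.36, adjusted p = 0.104), and PGM1 that between the knockdowns (-0.38, adjusted p = 0.185). Of 4 gluconeogenic genes, PC, pyruvate carboxylase (-0.52, adjusted p = 0.0256), and G6PC3, a glucose phosphatase of most tissues (-0.50, adjusted p = 0.0215), fell in CDH2 shRNA. In Cx43 shRNA PC was at -0.49 (adjusted p = 0.0854) and G6PC3 at -0.31 (adjusted p = 0.132), also below scramble. SLC37A4, the sugar phosphate carrier of the endoplasmic reticulum, had values of 0.53 (adjusted p = 0.0593) in Cx43 shRNA versus scramble and -0.40 (adjusted p = 0.136) in CDH2 shRNA versus Cx43 shRNA.

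At the branches to serine and glycerol, PHGDH, which starts serine synthesis, fell by 0.50 ± 0.12 in CDH2 shRNA (adjusted p = 0.0456) and was at -0.59 in Cx43 shRNA (adjusted p = 0.103). GPD2, which carries glycerol phosphate electrons into mitochondria, rose by 0.52 ± 0.12 in CDH2 shRNA (adjusted p = 0.0465). It was at 0.36 in Cx43 shRNA (adjusted p = 0.227). PSAT1, the next enzyme of serine synthesis, was 0.37 apart between the knockdowns (adjusted p = 0.247). None of 19 regulators with values passed in any comparison. MYC came closest in Cx43 shRNA, with 7.22, 7.25 and 7.19 in scramble, 7.47, 7.35 and 7.46 in CDH2 shRNA and 7.77 and 7.87 in Cx43 shRNA (0.60 ± 0.10 above scramble, adjusted p = 0.0539), and was named after its values were seen. HIF1A was at 0.31 in CDH2 shRNA (adjusted p = 0.135) and 0.15 in Cx43 shRNA (adjusted p = 0.58). The farthest from scramble was EGLN3, a hydroxylase that marks HIF for decay, at -0.67 in CDH2 shRNA (adjusted p = 0.0665) and -0.72 in Cx43 shRNA (adjusted p = 0.156), and MXI1, an antagonist of MYC, was the farthest apart between the knockdowns at -0.61 (adjusted p = 0.237). With the residual variance over 2 directions, ALDOC and PGLS passed in CDH2 shRNA and EMB in Cx43 shRNA, and the other 10 did not.

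**Figure D5:**
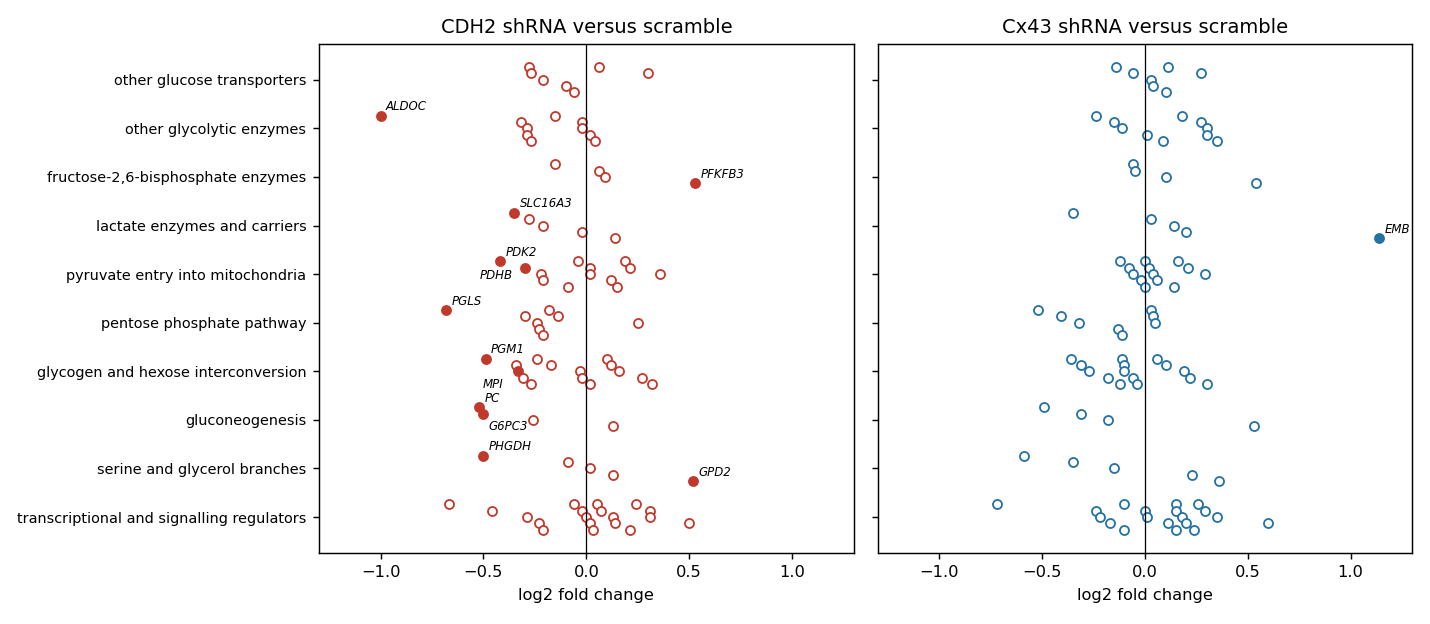
Log2 fold change of the 90 other genes of glucose metabolism, in rows by list, for each knockdown versus scramble. Filled and named points passed at an adjusted p under 0.05, 12 in CDH2 shRNA, from -1.0 (ALDOC) to 0.53 (PFKFB3), and EMB at 1.14 in Cx43 shRNA.

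Genes outside these lists with the pattern most like the mean of the 10 members over the 8 libraries were PPOX (Pearson r = 0.999), LZTS2 (0.995), EML2 (0.992), GAA (0.991) and C7orf55-LUC7L2 (0.990). For LDHA they were SLC44A2 (0.996), GGT7 (0.995), RAB31 (0.993), LDHAP7 (0.993) and a row whose symbol had been turned into a date. They were picked as the highest of all genes outside the lists, over 8 libraries that share groups and run correction, and describe likeness only. PPOX, an enzyme of heme synthesis, ran from 2.94 in CDH2 shRNA to 3.43 in Cx43 shRNA.

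Most members have processed pseudogenes that can take their reads. In GENCODE 85 pseudogenes carry the name of a member, 65 of them that of GAPDH, and 15 had values. HK2P1 followed HK2, with 1.38, 1.28 and 1.51 in scramble and 2.27, 2.49 and 2.21 in CDH2 shRNA (0.94, adjusted p = 0.0199). ENO1P1 (-0.58, adjusted p = 0.0349), PKMP1 (-0.55, adjusted p = 0.0209), PKMP4 (-0.75, adjusted p = 0.0257) and LDHAP2 (-0.62, adjusted p = 0.0209) were lower in CDH2 shRNA. None had more than 6.64% of the CPM of its parent in scramble, that being LDHAP4. With their CPM added to the parent, the same 5 members passed in CDH2 shRNA, as did 14.3% of all genes. HK2 then had a log2 difference of 0.71 (adjusted p = 0.0216).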

How the data were processed

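RNA-Seq of 8 libraries of sorted MDA-MB-231 CSCs was used (3 scramble, 3 CDH2 shRNA and 2 Cx43 shRNA). The authors aligned single-end reads of rRNA-depleted RNA to hg38 with STAR (2.6.1 in the submitters' processing notes) in Partek Flow, quantified them by expectation-maximization, removed a low-quality sample, normalized, removed the run effect with a log normal model with shrinkage, filtered low genes and deposited log2(CPM + 1). The annotation is not given in the sources used here. Of each file, 12939 named genes were used, and 1 unnamed line was not. For every gene, departures of same-numbered libraries from their groups' means add up to 1e-04 or less, so the correlations of same-numbered libraries (-1 to 0.951) are set by the run correction. The pairing rests on the prefixes of the column names, which match the replicate numbers. That they stand for sequencing runs is inferred.

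limma 3.58.1 (lmFit, eBayes; R 4.3.3) was fitted to all 8 libraries and 12939 genes with group and, as a block, replicate number (3 residual and 2.84 prior degrees of freedom), without a further filter or pseudocount. P-values are two-sided and Benjamini-Hochberg adjusted. The fold limits were 1.66 for CDH2 shRNA and 1.5 for the others. The members and lists were chosen with earlier results of these data known. Named were all members, other listed genes that passed (up to 12 per comparison, all here) or, where none of a list passed, its largest difference, the 5 genes most like the members' mean and LDHA, and 5 isozyme ratios, with ALDOC to ALDOA added after the values were seen. Lengths are of the Ensembl canonical transcript (GENCODE v44), matched by symbol for 11888 genes (91.9%). Alternatives were no block, quantile normalization, median centring, a 75% filter, a pseudocount of 0.1, a mean-variance trend, only the groups compared, each library left out, and, chosen after seeing the data, pseudogene CPM added to the members, the mitochondrial genome left out, and the residual variance over 2 directions. The transcripts of CDH2 and of the gene of Cx43 were not analysed here, and the knockdown of either was therefore not checked. Figures were drawn with matplotlib 3.10.9.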

Additional observations from a re-analysis of the deposited data

Results flagged for a closer look

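In ALDOA, GAPDH, ENO1 and PKM every CDH2 shRNA library lay below, and both Cx43 shRNA libraries above, all scramble libraries, as in 2.88% of all genes. The log2 difference of CDH2 shRNA from Cx43 shRNA, which limma tested directly, was -0.43 for ALDOA (adjusted p = 0.125), -0.41 for GAPDH (adjusted p = 0.14), -0.44 for ENO1 (adjusted p = 0.124) and -0.43 for PKM (adjusted p = 0.124), and none passed. Both knockdowns were set against the same scramble libraries.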

How the results depend on the processing

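The number of members that passed moved with the model more than the fold changes did. Without the replicate block, 6 members passed in CDH2 shRNA, 3 in Cx43 shRNA and 8 between the knockdowns (44, 26 and 25 of the other pathway genes, and 43.3, 24.3 and 21.5% of all genes). With only the 2 groups compared, the counts were 0, 1 and 0 members and 0, 18 and 3 other pathway genes (0, 21.7 and 4.32% of all genes), and the median between the knockdowns was -0.34. In CDH2 shRNA, 3 members passed after quantile normalization (15.2% of all genes) and 3 with a pseudocount of 0.1 (12.8%), and with the residual variance over the directions that vary, 1 member and 2 other pathway genes (2.29%). Quantile normalization gave members' medians of 0.11 in Cx43 shRNA and -0.26 between the knockdowns. With the 75% of genes of the highest means, 0 other pathway genes passed in Cx43 shRNA (0.0412% of all). Leaving out 1 library at a time, members passing ranged from 0 to 5 in CDH2 shRNA, from 0 to 1 in Cx43 shRNA and from 0 to 5 between the knockdowns, and other pathway genes from 0 to 29, 0 to 11 and 0 to 11. The highest counts came without CDH2 shRNA or scramble replicate 3, where 41, 16.5 and 16.5% of all genes passed. The medians ranged from -0.30 to -0.12, 0.09 to 0.24 and -0.46 to -0.32. Where this left a lone Cx43 shRNA library, it was assumed to vary like the others, and a lone replicate 3 added nothing to the fit. The fits without CDH2 shRNA replicate 3 and without scramble replicate 3 therefore gave the same calls and are not separate checks, though both are counted below. HK2 in CDH2 shRNA passed in 12 of 18 alternatives (0.60 to 0.80, adjusted p up to 0.15), ALDOA in 10, PFKP and PKM in 9 and ENO1 in 5, with no change of direction. SLC2A1 in CDH2 shRNA turned to -0.02 after quantile normalization and ranged from -0.04 to 0.14 with a library left out, and PFKP in Cx43 shRNA from -0.23 to 0.01. The cause was not tested.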
